A study of Mus musculus with 18 samples.

Results

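A set of 10 genes of collagen folding and cross-linking was followed in the L3–L5 dorsal root ganglia (DRG) of CD1 mice: P4ha1, P4ha2, P3h2 (listed by its older symbol Leprel1), Plod1, Plod2, Serpinh1, Bmp1, Lox, Loxl1 and Tgm2. They make up 10 of the 36737 genes with counts, and 9 were found under the listed symbol and 1, Leprel1, under its current symbol P3h2. The set was chosen by a measured value, since Serpinh1 and Tgm2 were picked because they were lower after fracture, and the other 8 were added because they act on the same collagens. The difference between fracture and sham mice is therefore described for these genes. Calls past the threshold are given for it, but are not read as tests of the set.

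The libraries came from 3 groups of 6 outbred CD1 mice, each with 3 males and 3 females, and 1 library per mouse. The Sham group had sham surgery, the Fracture group had a tibial fracture and vehicle, and the Fracture+PDX group had the same fracture and Protectin DX (PDX), a lipid mediator made from docosahexaenoic acid. DRG of both fracture groups were taken on day 3. In the study the tibia was pinned and cut in the left hind limb, the animals were adults, and neither the side of the ganglia, the day of the sham tissue nor the dose of PDX given to these mice is named in the sources used here. No allele or transgene is named for any group.

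Collagen chains are modified as they enter the endoplasmic reticulum. Prolyl hydroxylases make the hydroxyprolines that hold the triple helix together, lysyl hydroxylases prepare lysines for sugars and cross-links, and the chaperone HSP47, encoded by Serpinh1, binds the folded helix until it leaves. Outside the cell, proteinases trim the propeptides, lysyl oxidases start the covalent cross-links of fibrils, and transglutaminases join glutamine to lysine in the matrix. In a DRG this matrix surrounds neurons with their satellite glia, Schwann cells, fibroblasts and vessels. In bulk tissue, fewer cells of a type and less RNA per cell cannot be told apart.

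The total count per library lay between 63235040 and 82824942, and no sequencing batch is named. Neuronal markers were high in all libraries, with a summed level from 11461 to 12193 CPM (counts scaled to library size with TMM factors) in sham, 12919 to 13573 CPM in fracture and 12311 to 13997 CPM in Fracture+PDX mice, and 0 of the 10 were at 0. Markers of other tissues were also present. The 12 placenta markers, which mark no cell type of the labelled tissue, summed to between 174 and 570.2 CPM in sham, 28.9 and 265 CPM in fracture and 26.9 and 140 CPM in Fracture+PDX libraries, males included. The 12 skeletal muscle markers summed to between 100.1 and 860.2 CPM, 137 and 1564 CPM, and 79.0 and 805 CPM in the same order. Both lists vary between libraries of 1 group and are set beside the results they move with.

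Promoter sequence was read for 4 of the 10 genes, Serpinh1, P4ha1, P4ha2 and Plod1. The sequences are those of RefSeq (GRCm38.p6), cover the 250 bases before the annotated start and are written 5′ to 3′ on the strand of the gene. Shown here are the 3 of these 4 genes that were lower than in sham mice in at least 1 fracture group, a choice made from their values, so that the sequence stands beside the values given later. Capitals mark ACGTG, 1 form of the core of the hypoxia response element, on either strand. The other form, GCGTG, was not searched or counted, and it is present in the Plod1 window.
Serpinh1: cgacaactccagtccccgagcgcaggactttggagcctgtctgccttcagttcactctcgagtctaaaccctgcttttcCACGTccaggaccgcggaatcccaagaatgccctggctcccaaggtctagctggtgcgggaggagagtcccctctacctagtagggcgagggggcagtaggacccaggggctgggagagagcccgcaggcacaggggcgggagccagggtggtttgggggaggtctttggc
P4ha1: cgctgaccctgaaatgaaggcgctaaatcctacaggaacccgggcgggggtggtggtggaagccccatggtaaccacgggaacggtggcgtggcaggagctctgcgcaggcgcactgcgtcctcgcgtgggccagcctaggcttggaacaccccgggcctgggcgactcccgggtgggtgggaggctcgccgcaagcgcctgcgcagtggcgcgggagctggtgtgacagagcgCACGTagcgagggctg
P4ha2: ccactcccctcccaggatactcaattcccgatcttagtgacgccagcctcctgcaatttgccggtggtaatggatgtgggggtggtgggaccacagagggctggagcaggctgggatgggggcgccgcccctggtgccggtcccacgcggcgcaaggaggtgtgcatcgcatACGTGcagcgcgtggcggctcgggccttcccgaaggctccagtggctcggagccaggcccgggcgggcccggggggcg
Serpinh1 lies on the minus strand and its window is chr7:99353240-99353489, P4ha1 on the plus strand with chr10:59323046-59323295, and P4ha2 on the plus strand with chr11:54100674-54100923. The window of P4ha2 lies inside the gene span of the deposited table, whose first base is 54100095. ACGTG occurred once in each of the 3 windows, 171, 16 and 78 bases before the start, and 0 times in the Plod1 window, while 16.6% of 32851 promoters of this length held it. GAANNTTC, a short form of the heat shock element, occurred 0 times in the 4 windows and in 6.69% of all promoters. GGGCGG, the GC box, was found once in Serpinh1 and P4ha1 and in 2 places in P4ha2 and Plod1, against 32.7% of promoters. CCAAT was found in none of the 4 and in 33.8% of promoters. Both strands were searched and the motifs do not overlap in these windows.

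The level of each gene in ganglia of sham-operated mice was compared per length, as the FPKM deposited by the authors (fragments scaled to transcript length and library size), in the 6 sham mice. Serpinh1 had the highest level, with 53.0 ± 2.94 FPKM (SD, n = 6), higher than 96.44% of 21340 expressed genes. Lox followed with 27.5 ± 8.73 FPKM, then P4ha1 with 15.98 ± 1.64, Tgm2 with 9.14 ± 0.981 and Plod1 with 8.21 ± 0.781. The other 5 lay close together, from 4.34 ± 0.283 FPKM for Bmp1 to 3.14 ± 0.417 for P3h2, with Loxl1, Plod2 and P4ha2 between them. Ranges of neighbours in this order did not overlap between Serpinh1 and Lox, between P4ha1 and Tgm2, and between Plod1 and Bmp1, and overlapped at every other step. Lox varied most, from 13.98 to 36.85 FPKM among sham mice.

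**Figure D1:**
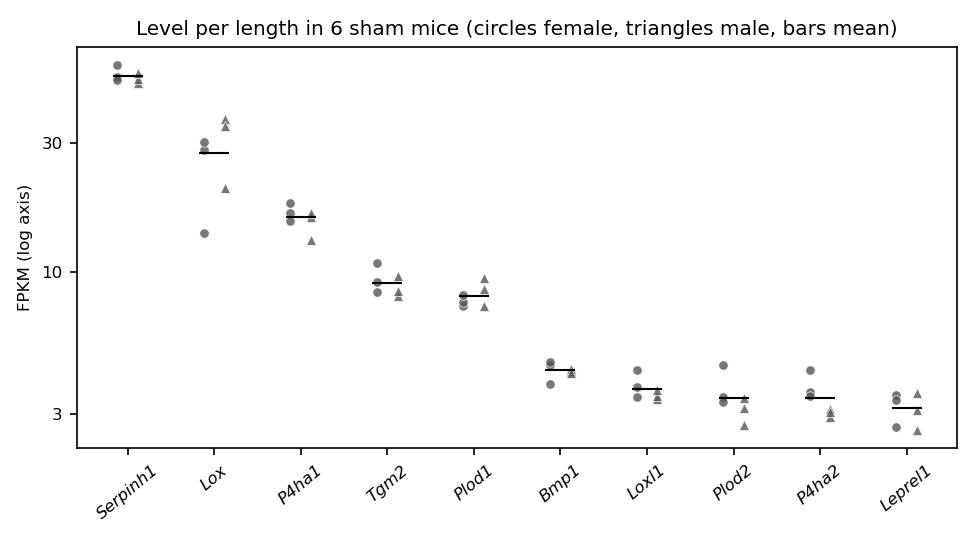
FPKM of the 10 genes in the 6 sham mice, on a log axis, with 1 point per mouse (circles female, triangles male) and a bar at the mean; Leprel1 is P3h2. Serpinh1 lay above all other genes, between 49.9 and 58.2 FPKM, and the last 5 genes lay between 2.62 and 4.67 FPKM.

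Serpinh1 and Tgm2 were picked for lying below sham mice after fracture, so no call is counted for them. Of the other 8 genes, 3 (P4ha1, Plod2 and P3h2) lay below sham mice after fracture past the threshold of edgeR's quasi-likelihood fit (adjusted p under 0.05 over all genes), and none lay above. This count is a description. Of all 20659 genes tested, 1.83% were lower, a share given as background only, since this difference chose the set. With PDX after fracture, 4 of these 8 were lower than in sham mice, the same 3 and P4ha2. The background share was 2.32% of 20574 genes. All 10 genes passed the filter on low counts in every comparison. Both comparisons use the same 6 sham mice, so the second is no independent repeat of the first, and for Serpinh1 and Tgm2 it is given with no test as well.

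**Figure D2:**
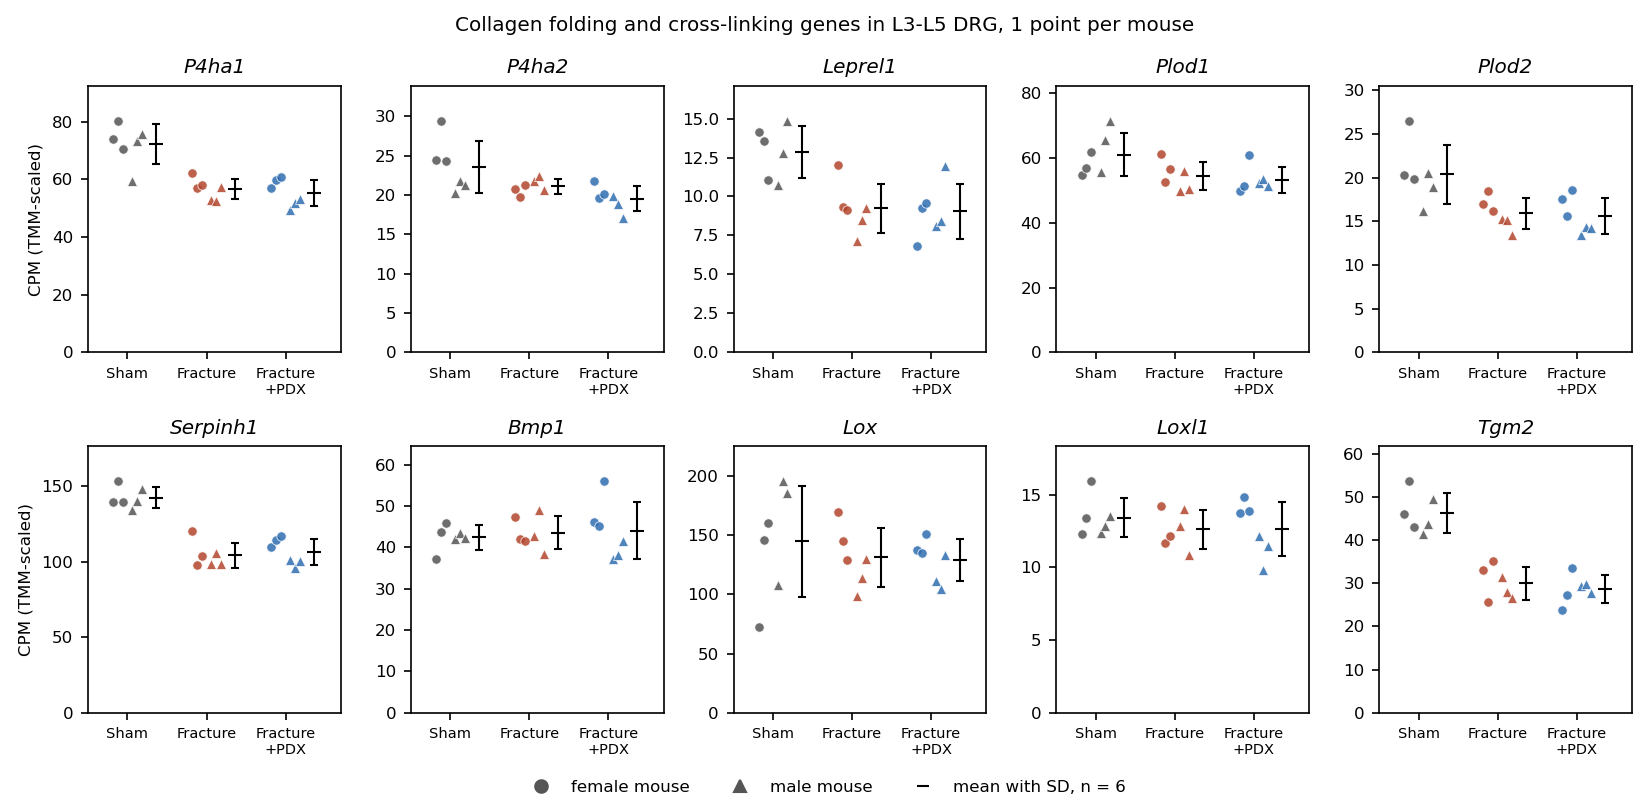
CPM of the 10 genes in each of the 18 mice, by group, from an axis that starts at 0, with the mean and SD of 6 mice at the right of each group; Leprel1 is P3h2. For Serpinh1 and Tgm2 all fracture and Fracture+PDX mice lay below the lowest sham mouse, at 134.1 and 41.4 CPM.

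Prolyl 4-hydroxylase needs a catalytic alpha subunit, and P4ha1 encodes the main one. P4ha1 (ENSMUSG00000019916, mm10 chromosome 10 from 59323296 to 59373304, plus strand) had a lowest, median and highest value of 59.5, 73.6 and 80.4 CPM in sham mice. The same values were 52.6, 57.15 and 62.1 CPM in fracture and 49.3, 55.2 and 60.8 CPM in Fracture+PDX mice. The groups overlapped only through 1 male sham mouse at 59.5 CPM, and 5 of the 6 fracture mice and 4 of the 6 Fracture+PDX mice lay below it. Its log2 fold change from sham was -0.35 (standard error 0.056) after fracture and -0.38 (standard error 0.056, adjusted p = 0.00292, edgeR) with PDX, where a two-sided exact permutation test gave p = 0.00649. Within each sex, fracture and sham mice did not overlap, with differences of -0.34 in females and -0.35 in males on the log2 CPM scale.

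P4ha2, which encodes a second alpha subunit (ENSMUSG00000018906, chromosome 11 from 54100095 to 54131662), had 20.2, 23.0 and 29.4 CPM as lowest, median and highest in sham mice. It had 19.8, 21.0 and 22.4 CPM after fracture and 17.0, 19.7 and 21.7 CPM with PDX. All 3 male sham mice lay at or below 21.8 CPM, among the fracture mice, and the 3 female sham mice lay above every fracture mouse. The log2 fold change was -0.15 (standard error 0.075) after fracture, which was not past the threshold, and -0.26 (standard error 0.063, adjusted p = 0.0350, edgeR; exact permutation p = 0.0108) with PDX.

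P3h2 encodes a prolyl 3-hydroxylase that acts on collagen of basement membranes (ENSMUSG00000038168, chromosome 16 from 25959288 to 26105784). Lowest, median and highest values were 10.8, 13.2 and 14.9 CPM in sham, 7.15, 9.19 and 12.03 CPM in fracture and 6.81, 8.87 and 11.97 CPM in Fracture+PDX mice. In each fracture group 5 of the 6 mice lay below every sham mouse, and 1 lay among them. The log2 fold change was -0.49 (standard error 0.11) after fracture and -0.51 (standard error 0.12, adjusted p = 0.0370, edgeR; exact permutation p = 0.00649) with PDX. Its count was from 506 to 1142 per library.

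Lysyl hydroxylases were measured next. Plod2, the enzyme that hydroxylates the ends of collagen chains (ENSMUSG00000032374, chromosome 9 from 92542223 to 92608428), had 16.2, 20.1 and 26.5 CPM as lowest, median and highest in sham, 13.4, 15.7 and 18.5 CPM in fracture and 13.4, 15.01 and 18.6 CPM in Fracture+PDX mice. In both fracture groups 4 of the 6 mice lay below every sham mouse. Its log2 fold change was -0.36 (standard error 0.081) after fracture and -0.38 (standard error 0.081, adjusted p = 0.0190, edgeR; exact permutation p = 0.0108) with PDX. Plod1, which hydroxylates lysines within the helix (ENSMUSG00000019055, chromosome 4 from 147909753 to 147936767), was not past the threshold. Its log2 fold change was -0.17 (standard error 0.072) and -0.19 (standard error 0.068, adjusted p = 0.145, edgeR; exact permutation p = 0.0281), and values ran from 54.9 to 71.6 CPM in sham, 49.8 to 61.3 CPM in fracture and 49.8 to 60.8 CPM in Fracture+PDX mice.

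The calls of Plod2 and P3h2 after fracture were each lost in 9 of the 12 fits that left out 1 mouse, while their fold changes stayed between -0.40 and -0.29 for Plod2 and between -0.56 and -0.42 for P3h2. With PDX, P4ha2 and P3h2 each lost the call in 8 of 12 such fits, with fold changes from -0.29 to -0.21 for P4ha2 and from -0.60 to -0.43 for P3h2. P4ha1 kept it in all 12 of each comparison. The call of Plod2 after fracture was also lost with no sex term, with the replicate block and in both limma fits of FPKM, with fold changes from -0.36 to -0.27, and that of P4ha2 with PDX was lost in the same 4 fits, with fold changes from -0.27 to -0.21. Plod2 with PDX lost it with no sex term (-0.38) and with the block (-0.37). Plod1 passed the threshold with PDX in 1 of the 12, without female Fracture+PDX mouse 3. With the mean of the placenta markers as a covariate, none of the 10 genes was called in either sham comparison, P4ha1 included.

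Serpinh1 (ENSMUSG00000070436, chromosome 7 from 99345376 to 99353239, minus strand) had 134.1, 139.8 and 153.5 CPM as lowest, median and highest in sham mice. After fracture these were 97.6, 101.4 and 120.2 CPM, and with PDX 96.2, 105.4 and 116.9 CPM. The sham mice were the most even of any group of this gene, with an SD of 4.99% of the mean, and both fracture groups lay wholly below them. The log2 fold change was -0.45 (standard error 0.050), a change of -26.9%, after fracture and -0.42 (standard error 0.042), or -25.1%, with PDX. Differences within the sexes were -0.43 in females and -0.48 in males after fracture, and -0.34 and -0.50 with PDX.

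Bmp1, the proteinase that removes the C-terminal propeptide (ENSMUSG00000022098, chromosome 14 from 70474558 to 70520188), was the only gene of the 10 with a fold change above 0 in the sham comparisons. It had 42.4 ± 2.97 CPM (SD, n = 6) in sham, 43.5 ± 3.97 in fracture and 44.1 ± 6.88 in Fracture+PDX mice. The log2 fold change was 0.04 (standard error 0.066) after fracture and 0.05 (standard error 0.080, adjusted p = 0.809, edgeR) with PDX, smaller than the spread between mice, and its sign turned when 1 of several mice was left out.

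Lox, the lysyl oxidase of fibrillar collagen and elastin (ENSMUSG00000024529, chromosome 18 from 52516067 to 52529867), spread widely. Sham mice ran from 72.3 to 195.9 CPM, fracture mice from 98.8 to 170.0 CPM and Fracture+PDX mice from 104.4 to 151.5 CPM, so the fracture groups lay inside the sham range. The log2 fold changes were -0.14 (standard error 0.25) and -0.16 (standard error 0.23, adjusted p = 0.797, edgeR). The 95% confidence interval after fracture, from -0.69 to 0.41, was the widest of the 10 genes and holds the size seen for Serpinh1. Leaving out 1 mouse moved Lox from -0.31 to -0.04 after fracture and from -0.32 to -0.06 with PDX, and with the mean of the placenta markers as a covariate it was at -0.30 and -0.52, past the threshold in none of these. Loxl1, a lysyl oxidase best known for elastic fibres (ENSMUSG00000032334, chromosome 9 from 58287738 to 58313186), had 13.4 ± 1.34 CPM in sham, 12.6 ± 1.34 in fracture and 12.6 ± 1.85 in Fracture+PDX mice (log2 fold change -0.08 and -0.09, standard error 0.085 and 0.082).

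Tgm2 encodes transglutaminase 2, which cross-links matrix proteins and is abundant in endothelium (ENSMUSG00000037820, chromosome 2 from 158116402 to 158146436, minus strand). Sham mice had 41.4, 44.9 and 53.7 CPM as lowest, median and highest, fracture mice 25.6, 29.8 and 35.3 CPM and Fracture+PDX mice 23.9, 28.6 and 33.7 CPM. Both fracture groups lay wholly below the sham group. The log2 fold change was -0.63 (standard error 0.082), or -35.2%, after fracture and -0.68 (standard error 0.081), or -37.8%, with PDX. Without a covariate this was the fold change farthest below 0 of the 10 genes in each sham comparison. With the mean of the placenta markers as a covariate, Tgm2 was at -0.34 and -0.36, behind P3h2 (-0.50) after fracture and Lox (-0.52) with PDX. Of the 10 genes, 2 had every fracture mouse below every sham mouse (Serpinh1 and Tgm2), and the same 2 did so with PDX. Among all genes tested this held for 1.47% after fracture and 1.51% with PDX, and nothing is read from these counts, since Serpinh1 and Tgm2 were picked for this difference.

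PDX was then compared with vehicle after fracture, a difference that the choice of genes did not use. All 10 log2 fold changes lay between -0.11 (P4ha2) and 0.04 (Serpinh1), and 0 of the 10 were called in edgeR's test, which called 0% of 20562 genes. Before adjustment, 1113 of all genes and 0 of the 10 had a p under 0.05. DESeq2 called 15 genes, none of the 10. The 95% confidence interval of the log2 fold change ran from -0.07 to 0.14 for Serpinh1, from -0.26 to 0.14 for Tgm2, from -0.11 to 0.05 for P4ha1 and from -0.31 to 0.28 for P3h2, the widest. Two-sided exact permutation tests of the 10 genes gave p from 0.0541 (P4ha2) to 0.952 (Loxl1), with 0.00216 the smallest that 6 mice against 6 allow. For P4ha2 the males of the groups did not overlap, with 17.0 to 19.8 CPM with PDX and 20.6 to 22.4 CPM with vehicle, whereas the females did.

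**Figure D3:**
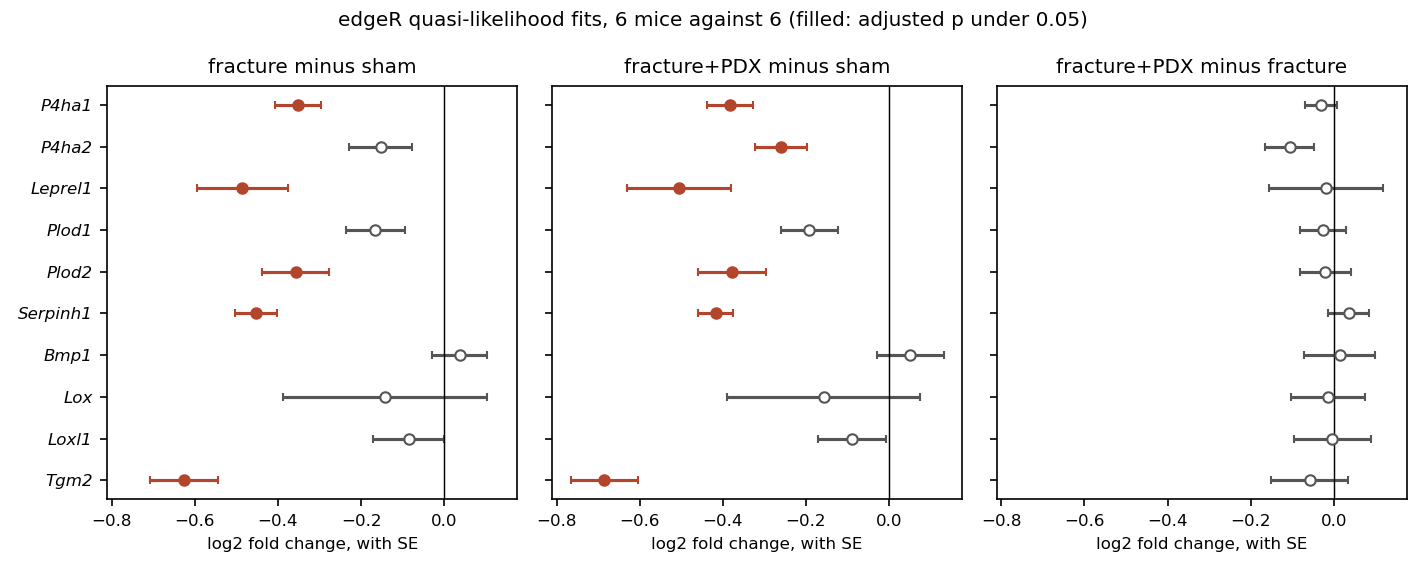
Log2 fold change with standard error of the 10 genes in the 3 group comparisons, 6 mice against 6; filled points had an adjusted p under 0.05 in edgeR, and Leprel1 is P3h2. The filled points of the sham comparisons, which for Serpinh1 and Tgm2 restate how they were picked, lie between -0.68 and -0.26, and all 10 genes lie between -0.11 and 0.04 for PDX against vehicle.

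Sex was a second difference that the choice did not use. Over the 3 groups all 10 genes had a log2 fold change below 0 for males against females, from -0.27 (Plod2) to -0.01 (Plod1), beside 50.44% of all genes, and 0 of the 10 were called by edgeR, which called 0.291% of 21340 genes. Before adjustment, 5 of the 10 and 2155 of all genes had a p under 0.05. For Plod2 the adjusted p was 0.0654 in edgeR, with a standard error of 0.061, and DESeq2 called it (adjusted p = 0.00557). P4ha1 was at -0.15 (standard error 0.042, adjusted p = 0.164, edgeR). Neither gene passed edgeR's test, and the sign turned for Plod1 when any 1 of 6 mice was left out, and for P3h2 when female fracture mouse 1 was left out.

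Whether the fracture difference depended on sex was tested with an interaction term, which called 0% of 20659 genes (1488 with an unadjusted p under 0.05; DESeq2 called 65). P4ha2 had the lowest p of the 10, with an interaction of 0.38 (standard error 0.11, adjusted p = 0.536, edgeR). It differed from sham by -0.34 in females and 0.04 in males on the log2 CPM scale. Lox differed by 0.30 in females and -0.47 in males, with an interaction of -0.73 (standard error 0.45, adjusted p = 0.789, edgeR). For Serpinh1 and Tgm2 the interaction was -0.05 (standard error 0.10) and -0.04 (standard error 0.17). The interaction of sex with PDX called 0.00486% of 20562 genes, which is 1 gene, none of the 10, and the 10 genes had an adjusted p of 0.998 each in edgeR.

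The other genes of collagen processing were counted from a list of 30, all of which could be tested. After fracture 1 was higher (Loxl4) and 1 was lower (Tgm1), and with PDX the same 2 were called. Of all genes tested, 1.09% were higher after fracture and 2.17% with PDX, beside the shares called lower given above. The median log2 fold change was -0.07 after fracture and -0.07 with PDX, beside -0.26 and -0.32 for the 10 genes and 0.0021 and -0.0013 for all genes tested. Of the 30 genes, 19 and 21 had a fold change below 0, beside 49.34% and 50.38% of all genes tested. The list and the 10 genes were both drawn up with earlier results known, so these values are a description.

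Loxl4, a further lysyl oxidase, had 4.003 ± 0.436 CPM (SD, n = 6) in sham, 6.04 ± 1.14 in fracture and 5.90 ± 0.983 in Fracture+PDX mice. Its log2 fold change was 0.59 (standard error 0.13) and 0.57 (standard error 0.12, adjusted p = 0.0206 with PDX, edgeR), opposite in sign to Lox and Loxl1. Tgm1, the transglutaminase of the epidermis, had 2.47 ± 0.520 CPM in sham, 0.823 ± 0.336 in fracture and 0.935 ± 0.417 in Fracture+PDX mice, from 23 to 215 reads per library. Its log2 fold change was -1.58 (standard error 0.28) and -1.40 (standard error 0.26, adjusted p = 0.00871 with PDX, edgeR). Tgm3 and F13a1, the other transglutaminases listed, were at 0.73 (standard error 0.73) and -0.21 (standard error 0.17) after fracture and were not called.

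The listed partners of these proteins were not called. P4hb, the beta subunit shared by the prolyl 4-hydroxylases, was at -0.13 (standard error 0.039) after fracture and -0.14 (standard error 0.038, adjusted p = 0.0586, edgeR) with PDX, neither past the threshold. The 3-hydroxylation complex of fibrillar collagen, Lepre1 (P3h1), Crtap and Ppib, had log2 fold changes of -0.22, -0.21 and -0.05 after fracture, and none was called. Plod3, the third lysyl hydroxylase, was at -0.13 and -0.01. Loxl2 and Loxl3 were at -0.28 and -0.07 after fracture, and Pcolce, the enhancer of Bmp1, was at -0.19, without a call.

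**Figure D4:**
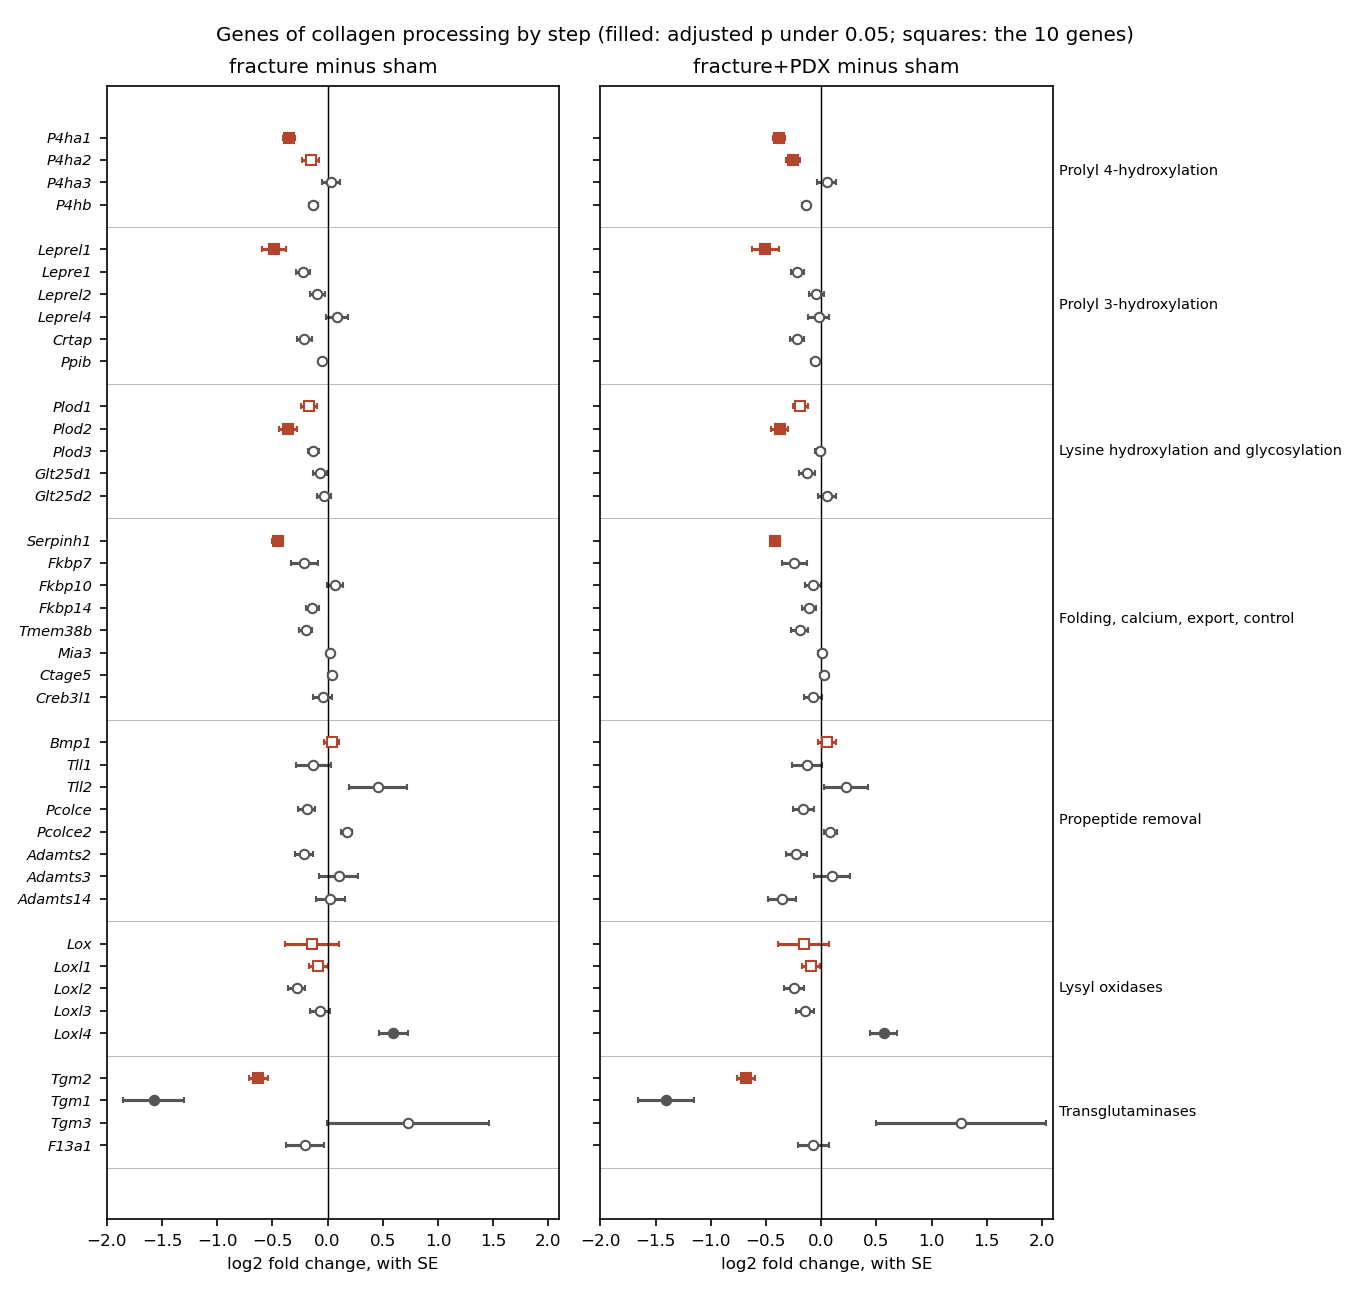
Log2 fold change with standard error of the 10 genes (squares) and 30 other genes of collagen processing (circles), ordered by step, after fracture (left) and with PDX (right) against sham; filled symbols had an adjusted p under 0.05 in edgeR. Among the 30 circles only Loxl4, to the right, and Tgm1, to the left, are filled in each panel; Leprel1 is P3h2.

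The substrates were counted next. Of 15 fibrillar and basement membrane collagen chains, 0 were called after fracture and 1 was lower with PDX (Col2a1, log2 fold change -0.37), with medians of -0.19 and -0.19 and 13 of 15 below 0 in each, against the same shares of all genes. Serpinh1 is also a heat shock gene. Of 18 other heat shock genes, 2 were lower after fracture (Hsph1, -0.27, and Hspa1a, -1.05; median of the list -0.10), and with PDX 4 were lower (Hspa1a, Hspa1b, Hsph1 and Dnajb1) and 2 were higher (Hspb1, 0.22, and Bag3, 0.11). Hspa1a had 21.5 to 70.1 CPM in sham mice and 17.7 to 20.1 CPM after fracture, and reads of Hspa1a and Hspa1b, near-identical copies, may be shared between them. Of 17 hypoxia-induced genes, Slc2a1 was lower after fracture (-0.24) and 0 were called with PDX, with medians of -0.08 and -0.11. Of the TGF-beta-induced genes, Fn1 (-0.54) and Tgfbi (-0.36) were lower after fracture, and Fn1 (-0.59), Ccn2, listed as Ctgf (-0.36), and Thbs1 (-0.21) were lower with PDX.

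Markers of the cells that make or carry this matrix were lower in part, beside 1.83% and 2.32% of all genes called lower after fracture and with PDX. Endothelial markers were lower for 2 of 14 after fracture (Cdh5, -0.73, and Flt1, -0.71) and 3 of 14 with PDX (Esam as well), with a summed level of 288 to 341 CPM in sham, 255 to 298 CPM in fracture and 246 to 290.5 CPM in Fracture+PDX mice, and medians of -0.11 and -0.15. The 12 endothelial markers not called after fracture ran from -0.24 (Tek) to 0.07 (Cldn5). Fibroblast markers were lower for 1 of 11 in each comparison (Dcn, -0.33, and Dpep1, -0.82), but 10 of the 11 had a fold change below 0 in each, with medians of -0.30 after fracture and -0.24 with PDX. Their sums were 1158 to 1535, 1011 to 1258 and 1020.0 to 1336 CPM. Of 9 pericyte and smooth muscle markers 0 were called (Des, 0.46, and Myh11, 0.30, were farthest from 0 after fracture), with medians of 0.0083 and -0.13. Of 9 Schwann cell markers 0 were called (Mbp, -0.25, and Prx, -0.23, were farthest from 0 after fracture), with medians of -0.18 and -0.09. Of 8 satellite glial markers Kcnj10 was higher with PDX (0.27), with medians of 0.07 and 0.17. Of 10 macrophage markers, Csf1r (-0.47) and Adgre1 (-0.56) were lower after fracture and Csf1r with PDX, with medians of -0.28 and -0.06. Neuronal markers were higher for 4 of 10 (Nefh, Tubb3, Scn9a and Uchl1, 0.14 to 0.22) and 3 of 10 (Tubb3, Rbfox3 and Uchl1), beside 1.09% and 2.17% of all genes, with medians of 0.13 in both. Of 12 skeletal muscle and 15 bone marrow and blood markers 0 were called, with medians of 1.99 and -0.63 after fracture, 0.07 and 0.14 with PDX against sham and -1.91 and 0.68 for PDX against vehicle. After fracture, the 2 genes of each list farthest from 0 were Myh1 (2.74) and Tnni2 (2.24) for muscle, and Elane (-1.08) and S100a9 (-0.94) for bone marrow and blood. No listed marker was at 0 in all libraries. The part of cell composition in the lower values of the 10 genes was not tested.

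The placenta markers were lower as well. After fracture 3 of the 12 were lower (Prl3d1, Prl2c2 and Prl6a1) and with PDX 8 of 12 (Prl2c2, Prl3b1, Prl6a1, Prl8a8, Psg17, Psg21, Tpbpa and Ceacam9), with medians of -1.76 and -2.22, and 1 of the 12 was at 0 in at least 1 library. Tgm2 followed the list within groups and sexes (r = 0.74 over 18 mice, a description), whereas r was 0.39 for P4ha2, 0.30 for Serpinh1, -0.01 for P4ha1 and -0.01 for P3h2, with library preparation and dissection shared by all genes of a library. With the mean of the list as a covariate, an alternative chosen after seeing the data, none of the 10 genes was called in either comparison, and 1 and 0 of all genes. The log2 fold change of Tgm2 was then -0.34 after fracture and -0.36 with PDX, against -0.63 and -0.68 without it. Serpinh1 was at -0.39 and -0.38, against -0.45 and -0.42, and P4ha1 at -0.36 and -0.35, against -0.35 and -0.38. With PDX, P3h2 was at -0.29 with the covariate and -0.51 without it, P4ha2 at -0.14 and -0.26, and Plod2 at -0.34 and -0.38. After fracture, P3h2 was at -0.50 and -0.49 and Plod2 at -0.26 and -0.36 in the same order. The part of this tissue signal in the fracture difference was not tested. With the mean of the muscle list as a covariate, P4ha1 kept its call in both comparisons, and Plod2 and P3h2 after fracture and P4ha2 with PDX lost theirs. The genes that lost the call had fold changes close to those without the covariate, -0.40 against -0.36 for Plod2 and -0.44 against -0.49 for P3h2 after fracture, and -0.26 against -0.26 for P4ha2 with PDX.

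**Figure D5:**
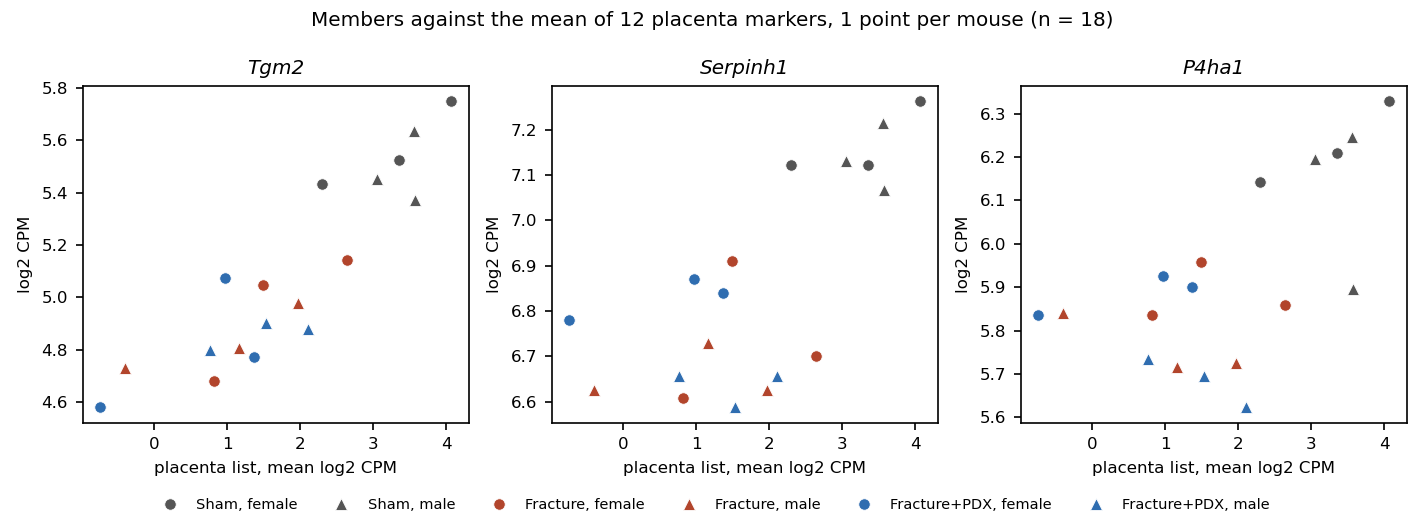
Log2 CPM of Tgm2, Serpinh1 and P4ha1 against the mean log2 CPM of 12 placenta markers, 1 point per mouse (n = 18), colored by group with circles for females and triangles for males. Most sham mice lie to the upper right in each panel, and within groups Tgm2 follows the list (r = 0.74 within groups and sexes) more than Serpinh1 (0.30) or P4ha1 (-0.01).

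Variation between mice was compared on deviations from the mean of each group and sex, which removes the difference that chose the set. Over the 45 pairs of the 10 genes, r had a median of 0.41, was above 0 in 42 and ran from -0.28 (P4ha2 with P3h2) to 0.72 (P4ha1 with P3h2). All genes of a mouse share 1 library, so these are descriptions. Of 4 relations tested with exact permutations within group and sex (all arrangements, two-sided), Serpinh1 with Tgm2 gave r = 0.59 (exact p = 0.0686, adjusted p = 0.274) and rho = 0.67 (exact p = 0.0254, adjusted p = 0.102), and r = 0.47 without the 2 farthest mice. Serpinh1 with the heat shock list gave r = 0.33 (adjusted exact p = 0.46; rho = 0.40, adjusted exact p = 0.362), and with the collagen list r = 0.23 (0.46; rho = 0.28, adjusted exact p = 0.442). Tgm2 with the endothelial list gave r = 0.14 (adjusted exact p = 0.673; rho = 0.14, adjusted exact p = 0.667). None passed the threshold after adjustment, and without the 2 farthest mice r of the last 3 was 0.47, 0.31 and 0.37.

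Genes whose level over the 18 libraries was most like that of Serpinh1, by Pearson's r of log2 CPM among 13324 genes with a mean of at least 1 FPKM, were mt-Rnr1 (0.93), Gstm1 (0.92), P4ha1 (0.92), Lima1 (0.91) and Tgm2 (0.89). For Tgm2 they were 1700017B05Rik (0.96), Fn1 (0.95), Fblim1 (0.93), Cdh5 (0.93) and Plet1 (0.93). These values hold the difference between the groups. Within groups and sexes, r was 0.28 for mt-Rnr1, 0.52 for Gstm1, 0.58 for P4ha1 and 0.65 for Lima1 with Serpinh1, and 0.62 to 0.85 for the 5 genes with Tgm2. Over the 18 libraries and among the 10 genes, Plod2 (0.80), P3h2 (0.78) and Plod1 (0.70) came after P4ha1 and Tgm2 in likeness to Serpinh1. Bmp1 (0.16) and Lox (0.31) were the least alike. Within groups and sexes this order changed, with 0.63 for Plod1, 0.61 for P3h2, 0.52 for Bmp1 and 0.44 for Lox, and Plod2 lowest at 0.30.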

How the data were processed

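Poly(A) RNA of L3–L5 DRG was made into strand-specific libraries and sequenced paired-end on an Illumina NovaSeq system. The authors deposited raw read counts per gene, not normalized, and FPKM values, scaled for transcript length and library size. Their processing notes name cutadapt 1.10, FastQC, HISAT2, StringTie and mm10, and the counting program is not given in the sources used here. The columns for sham mice were matched to them by elimination. No column was left without a sample.

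For the counts, edgeR 4.0.16 was run under R 4.3.3 (filterByExpr, minimum count 10 and total 15; TMM; robust quasi-likelihood fits with sex and group on the 12 libraries of each comparison; Benjamini-Hochberg over all genes tested). The fit was first tested on simulated counts. Log2 CPM used a prior count of 2. Standard errors are the fold change divided by the root of F. No pair of libraries of a group differed by as little as sampling noise. Replicates are separate mice. Exact permutation tests enumerated all 924 labelings of 12 mice.

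The 10 genes and all gene lists were chosen with earlier results of these data known. Genes named from a list are those called in a group comparison, otherwise the 2 with the largest absolute fold change after fracture, and for likeness the 5 with the highest r; other genes of collagen processing named with values were chosen after their values were seen. Alternatives were DESeq2 1.42.0, limma 3.58.1 on log2(FPKM + 1) and log2(FPKM + 0.1), upper-quartile factors, other filters, no sex term, all 18 libraries, a replicate block, leaving out each mouse, and 2 covariates added later. For the TGF-beta-induced genes, 1 gene is not reported here, and the counts and median of that list are left out with it.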

Additional observations from a re-analysis of the deposited data

Results flagged for a closer look

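Of 30 groups of 6 mice looked at (10 genes in 3 groups), 1 held a mouse far from the others, where chance alone would mark about 1 group in 20. For Loxl1 in the sham group, female mouse 3 had 15.93 CPM and the nearest of the other 5 had 13.52 CPM, a gap of 0.638 of the range of the group on the log2 scale, above Dixon's critical value for 6 samples. Loxl1 was not called in any comparison. No interaction with sex passed the threshold for the 10 genes.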

How the results depend on the processing

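P4ha1 kept its direction and call in both sham comparisons under each alternative, except with the placenta mean as a covariate (adjusted p = 0.903 with PDX against sham, edgeR). For Serpinh1 and Tgm2, picked for the fracture difference, nothing is read from kept calls. Of 880 fold changes recomputed for the 10 genes, 787 kept direction and side of the threshold, 58 lost the call, 2 gained it and 33 changed sign. Genes called after fracture numbered 603 with edgeR, 1511 with DESeq2, 118 with the replicate block, 1 with the placenta covariate and 72 with the muscle covariate. With PDX against sham, 925 were called, 1620 with DESeq2, 486 with the block and 0 with the placenta covariate. DESeq2 called 15 genes in place of 0 for PDX against vehicle, 332 in place of 62 between sexes, with 1 of the 10 genes in place of 0, 65 in place of 0 and 8 in place of 1 in the interactions with fracture and PDX. Of the 8 genes not picked by value, P4ha1, Plod2 and P3h2 were called after fracture, and P4ha2 as well with PDX. Of all genes tested, 1.83% and 2.32% were called lower. None of the 8 was called in either comparison with the placenta covariate, and P4ha1 alone after fracture with the muscle covariate. Leaving out 1 mouse gave 213 to 710 genes after fracture, 498 to 1008 with PDX against sham, 0 to 1 for PDX against vehicle and 24 to 86 between sexes. The count fell by more than a factor of 1.5 after fracture without male sham mice 2 (253) or 3 (245), female sham mice 1 (372) or 2 (291), male fracture mice 1 (378), 2 (380) or 3 (287), or female fracture mouse 2 (213). With PDX against sham it did so without male sham mice 2 (539) or 3 (536), female sham mouse 2 (526), male Fracture+PDX mouse 3 (560) or female Fracture+PDX mouse 1 (498). The 1 gene for PDX against vehicle was called without female Fracture+PDX mouse 3. Between sexes 11 of 18 fits were lower by as much, the lowest without female fracture mouse 3 (24). Of the 10 genes, 3 to 5 were then called after fracture, with 3 without male sham mouse 2 or 3, female sham mouse 2, any male fracture mouse, or female fracture mouse 2 or 3. Whether mice of the same number are paired was not tested. The correlation of deviations of same-numbered mice lay between -0.07 and 0.13, and only 1 pair passed 0.1. Of 12 mice, 8, 3 and 8 correlated best with their own number after fracture, with PDX against sham and with PDX against vehicle. Of the 8, the replicate block called P4ha1 and P3h2 in each sham comparison. The cause of these changes was not tested.

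The direction was not stable for small fold changes. Leaving out 1 mouse moved Bmp1 from -0.0061 to 0.075 after fracture, from -0.014 to 0.086 with PDX against sham (-0.078 with the placenta covariate) and from -0.051 to 0.077 for PDX against vehicle. In the last comparison Plod1 ran from -0.063 to 0.0041, Plod2 from -0.050 to 0.0050, Lox from -0.069 to 0.040, Loxl1 from -0.049 to 0.055 (0.0060 with no sex term) and P3h2 (Leprel1) from -0.13 to 0.068. Between males and females, Plod1 ran from -0.041 to 0.023 and P3h2 from -0.12 to 0.0043. The lowest count of any of the 10 genes in a library was 506, and the part of depth was not tested.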
